A study of Aspergillus niger with 4 samples.

Results

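In the filamentous fungus Aspergillus niger, 53 genes had strongly lower transcript levels in a strain without hapX than in its reference strain. All 53 lay under an upper limit on mean level, which most genes of the series also met. The 53 were selected by their values in these same libraries from the 10898 genes listed in at least 1 of the deposited tables. Levels are given in CPM, expected counts scaled to the same total in every library. A member had a mean under 93 CPM over the 4 libraries, a reference mean of at least 8 CPM, and both delta-hapX values below both reference values. Its ratio of delta-hapX over reference, with 0.5 CPM added to each mean, was at most 0.35 when rounded to 2 decimals, a fall of 1.5 on the log2 scale, and its coding length was above 300 bases. The fall itself is therefore the ground on which the genes were chosen and is described here without a test.

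RNA of mycelium was sequenced in 4 libraries, 2 per strain, named a and b. The reference strain is N593 delta-kusA, with the genotype cspA1, pyrG- and kusA::amdS. The mutant carries the same 3 alleles and in addition delta-hapX::hph, a replacement of hapX by a hygromycin resistance gene. Both strains therefore lack kusA, whose loss makes homologous integration of a construct more frequent, and pyrG, a gene of uridine synthesis. Both were grown for 16 h on 2% fructose in rich medium and then kept for 2 h in 50 ml of minimal medium of pH 6 with 25 mM maltose. The labels name no separate cultures behind the libraries of a strain and do not say whether delta-hapX was represented by more than 1 transformant. The p-values given for neighbouring genes therefore measure the spread between the 2 libraries of each strain, and that spread can be purely technical.

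HapX is a transcription factor of the bZIP type. In Aspergillus nidulans and Aspergillus fumigatus it binds DNA together with the CCAAT-binding complex and governs iron homeostasis. During iron starvation it represses iron-consuming functions such as heme synthesis and respiration and favours iron uptake through siderophores, and under iron excess it activates iron detoxification. Maltose, the disaccharide released from starch, is an inducer of amylase genes in Aspergillus. None of the NRRL3 identifiers in the tables is paired with a gene name or function in the sources used here, so no role is given to any gene below, and the deleted gene is not checked in the libraries.

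Library totals were 4264311 and 4142850 expected counts for reference a and b, with 3840181 and 3505555 for delta-hapX a and b. The 53 genes held 11208 and 9979 reads of the reference libraries, against 2685 and 2293 of the delta-hapX libraries. These are 0.263% and 0.241% of the reference counts, against 0.0699% and 0.0654% of the delta-hapX counts. The summed level of the set was 2628 and 2409 CPM in the reference against 699 and 654 CPM without hapX. The set was therefore lower in both delta-hapX libraries, as its definition requires, and each strain's libraries were close to each other. A typical member was covered by a median of 149 and 127 reads in reference a and b and by 34 and 31 in delta-hapX a and b, so single delta-hapX values carry sizeable counting error. A count of 3 reads, taken as the detection floor, corresponds to between 0.704 and 0.856 CPM in the 4 libraries.

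The rule reduced the genes stepwise. Of 10898 genes, 8761 had a mean under 93 CPM, 4746 of these reached 8 CPM in the reference, and 4655 of these were longer than 300 bases. Both delta-hapX values lay below both reference values in 1701 of the 4655, and 53 of these also met the limit on the ratio, or 1.14% of the 4655. In the test across the whole table, edgeR's quasi-likelihood test with Benjamini-Hochberg adjustment, all 53 passed the filter on low counts and were called lower. Of all 8535 genes tested, 14.4% were called lower. DESeq2's Wald test with the same adjustment called 52 of the members and 9.94% of its tested genes lower. Of the 53, 8 passed the filter through the reference libraries alone, and nothing is read from the count of calls, since the rule used the same contrast. Of all genes tested, 33.2% had both delta-hapX values below both reference values. The median fitted log2 fold change was -1.79 over the members and 0.0011 over all genes tested.

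**Figure D1:**
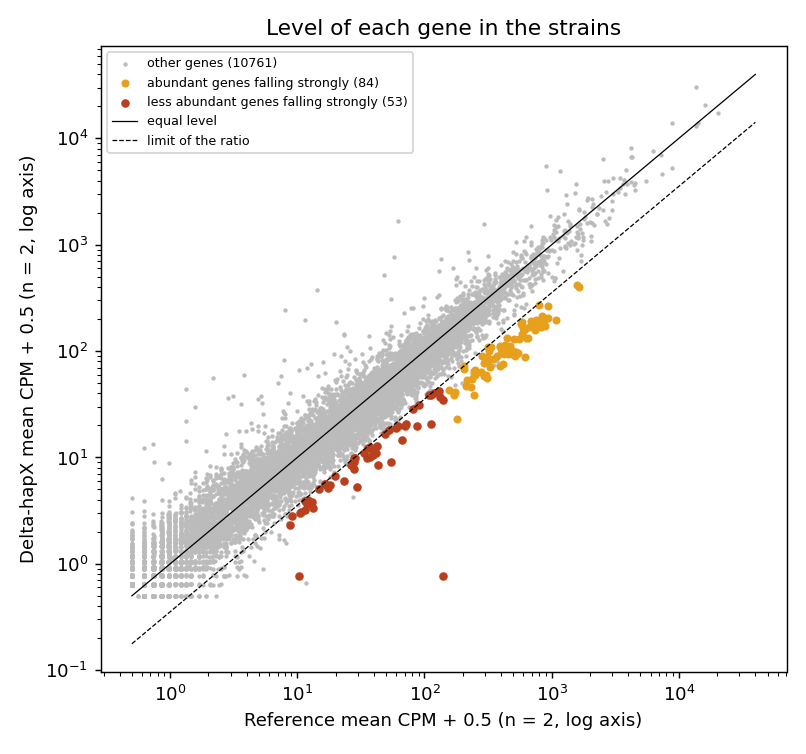
Mean level of each gene in the reference (x axis) and in delta-hapX (y axis), both as CPM + 0.5 on log axes, n = 2 libraries per strain. The 53 members (red) lie under the dashed line of the ratio limit, as do the 84 abundant genes cut with the same ratio (orange), and NRRL3_00511 and NRRL3_01648 lie far below the rest of the members.

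Most members fell by about 3-fold, and a pair fell to the detection floor. The ratio of the means, with the offset of 0.5 CPM, corresponded to a median fall of 3.33-fold. A fall of 10-fold or more was seen in 2 members, a fall of 4-fold to 10-fold in 7 and a smaller one in 44. Without the 2 strongest, the falls of the remaining 51 ranged from 2.84-fold to 6.02-fold. At the limit of the ratio, NRRL3_01136, at 0.353, and NRRL3_09130, at 0.349, were the last members inside. NRRL3_04347, at 0.355, and NRRL3_07971, at 0.356, were the nearest genes outside. The members thus pass without a gap into genes that fell slightly less.

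NRRL3_00511 (coding length 1488 bases) was almost absent from delta-hapX. No identifier is paired with hapX in the sources used here, so this gene may be the deleted one, in which case its values would show the deletion and not a change in transcript level. The reference libraries a and b held 685 and 492 of its reads, and each delta-hapX library held 1. These correspond to 160.6 and 119 CPM in the reference libraries and 0.260 and 0.285 CPM in the delta-hapX libraries. Both delta-hapX values lay under the detection floor, and of the other members only NRRL3_01648 also had values under it. By summed counts the reference level was 514 times the delta-hapX level, with an exact (Clopper-Pearson) 95% counting interval from 142 to 4251. In the reference it ranked 1391st of all genes by mean CPM, close to the most abundant member. With 93.1 FPKM, the level per kilobase of coding length computed by the authors, it was also above most members per length.

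NRRL3_01648 (678 bases) also fell to 1 read in each delta-hapX library, but from a far lower level. Reference libraries a and b held 40 and 43 of its reads, or 9.38 and 10.4 CPM. Its count ratio was 36.3, with a 95% counting interval from 9.73 to 304. Both reference values were thus well above the floor and both delta-hapX values below it. The interval is wide because it rests on 2 delta-hapX reads in all.

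The gene models numbered next to NRRL3_00511 did not share its near absence. NRRL3_00510 averaged 3.72 CPM with hapX and 3.78 CPM without it (means, n = 2 each), with a log2 fold change of 0.05 (edgeR adjusted p = 0.959). NRRL3_00512 was at 56.2 and 40.5 CPM, a log2 fold change of -0.46 that did not pass the test (edgeR adjusted p = 0.117). At a distance of 2 both neighbours fell, NRRL3_00509 from 204 to 67.6 CPM (log2 fold change -1.57, edgeR adjusted p = 6.12e-08) and NRRL3_00513 from 104.8 to 52.8 CPM (log2 fold change -0.97, edgeR adjusted p = 9.26e-05). None of these 4 neighbours changed by as much as NRRL3_00511. The gene numbered before NRRL3_01648, NRRL3_01647, fell from 52.7 to 33.1 CPM (log2 fold change -0.65, edgeR adjusted p = 0.0084).

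Behind this pair came genes that fell 5-fold to 6-fold but kept a clear level in delta-hapX. NRRL3_04013 (1557 bases) had 47.1 and 60.3 CPM in the reference libraries and 7.03 and 9.98 CPM in the delta-hapX libraries. The means were 53.7 ± 9.34 against 8.51 ± 2.09 CPM (SD, n = 2 each), a 6.02-fold difference with the offset. NRRL3_01952 (960 bases) had 93.8 and 128 CPM in the reference against 18.5 and 21.4 CPM in delta-hapX, a 5.46-fold difference. In both genes the reference libraries differed more from each other, in CPM, than the delta-hapX libraries did, and reference library b was the higher. In fold, the reference libraries differed less than the delta-hapX libraries for NRRL3_04013 (1.28 against 1.42) and more for NRRL3_01952 (1.37 against 1.16). NRRL3_09100 and NRRL3_09101, the other members with at least a 5-fold fall, belong to a run of consecutive identifiers described below.

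**Figure D2:**
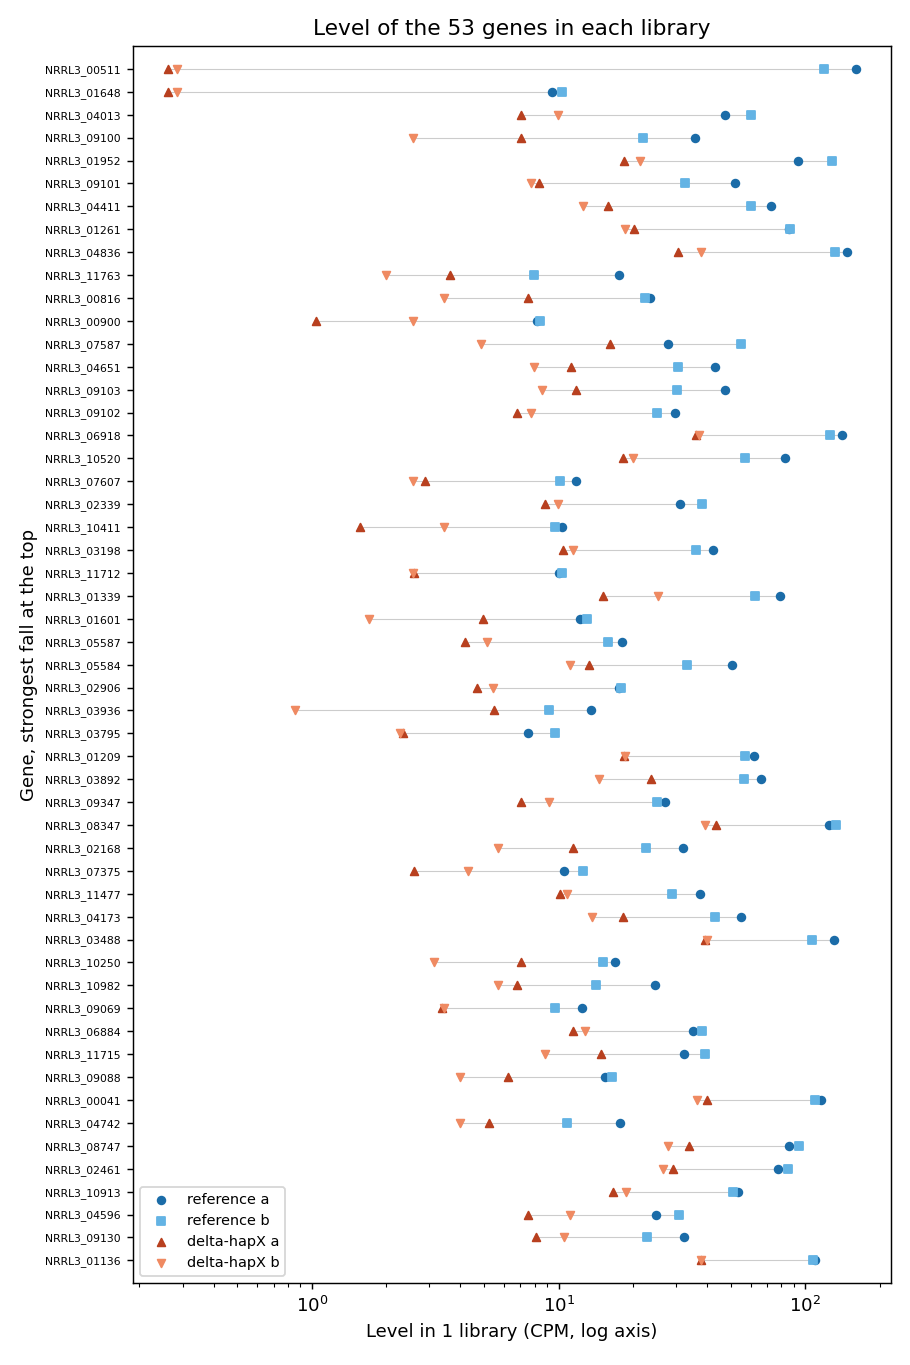
Level of each of the 53 genes in each library (CPM, log axis), ordered by the rule's ratio with the strongest fall at the top. Blue symbols are the reference libraries, red and orange symbols the delta-hapX libraries, and the grey line spans the 4 values of a gene. The strains do not overlap in any gene, which the rule requires, and the gap is widest in NRRL3_00511.

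By reference level, 17 members were under 20 CPM, 28 were between 20 and 100 CPM and 8 were at 100 CPM or more. NRRL3_04836 (423 bases) was the most abundant member, with 148 and 132 CPM in the reference libraries and 30.5 and 37.9 CPM in the delta-hapX libraries, a 4.05-fold difference. NRRL3_06918 (333 bases) followed NRRL3_00511 in the order of reference levels, with 140.5 and 126 CPM against 36.2 and 37.1 CPM, a 3.59-fold difference. NRRL3_08347 (2109 bases) had 124 and 133 CPM against 43.5 and 39.1 CPM, a 3.09-fold difference. NRRL3_04836, NRRL3_06918 and NRRL3_08347 thus fell by factors of 3 to about 4. Of the other members at 100 CPM or more, NRRL3_00511 fell far more and NRRL3_01952, at 111 CPM, by 5.46-fold. The smallest fall among the 8 was that of NRRL3_01136, at 108 CPM, by 2.84-fold.

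NRRL3_03488 (321 bases) had 131 and 107 CPM in the reference against 39.1 and 39.9 CPM in delta-hapX, a 2.99-fold difference. NRRL3_00041 (669 bases) had 116 and 109 CPM against 40.1 and 36.5 CPM, a 2.91-fold difference. The values of the strains lay apart in both genes, as the rule requires of every member. NRRL3_04836 also had the highest mean over the 4 libraries, 87.2 CPM. The next gene above it with the same kind of fall was NRRL3_08789, at 99.1 CPM, which the limit of 93 CPM keeps out. At the other end NRRL3_00900 (1506 bases) had the lowest reference mean, 8.33 CPM, from 8.21 and 8.45 CPM in the reference libraries against 1.04 and 2.57 CPM in the delta-hapX libraries.

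Scaled to coding length, the order of the members changed. The highest reference levels per length were those of NRRL3_06918 with a mean of 433 FPKM, NRRL3_03488 with 404 FPKM, NRRL3_04836 with 350.3 FPKM and NRRL3_00041 with 172 FPKM. In delta-hapX these were 119.6, 134, 85.7 and 58.7 FPKM. In all, 7 members exceeded 100 FPKM in the reference, the longest of them 960 bases, and 8 were under 10 FPKM. The longest members were NRRL3_01339 (11787 bases), NRRL3_11763 (5388 bases) and NRRL3_10913 (4434 bases), with 5.83, 2.31 and 11.5 FPKM in the reference. NRRL3_01339 nevertheless had 78.8 and 62.8 CPM in the reference libraries against 15.1 and 25.4 CPM in the delta-hapX libraries, since its length collects many reads at a low level per length.

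NRRL3_10913 had 53.5 and 50.9 CPM in the reference against 16.7 and 18.8 CPM in delta-hapX, a 2.89-fold difference with little spread in either strain. The gene numbered before it, NRRL3_10912, is longer still (18807 bases) and fell from 502 to 223 CPM (log2 fold change -1.15, edgeR adjusted p = 1.25e-06). NRRL3_03198 (408 bases), the third shortest member, had 42.4 and 36.0 CPM in the reference against 10.4 and 11.4 CPM in delta-hapX, a 3.48-fold difference.

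Coding length was used by the rule only as a minimum. The members had a median coding length of 1059 bases (interquartile range 816 to 1539). The 4655 genes that met the same limits on level and length, whatever their change, had a median of 1341 bases (927 to 1890). The 84 abundant genes cut with the same ratio, separation and length limits but with a mean of 93 CPM or more were shorter, with a median of 555 bases (429 to 794). The 70 less abundant genes that rose by the same limits, with the strains exchanged, had a median of 1293 bases. These are descriptions of sets chosen by their change, and the differences in length were not tested.

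The share of genes that fell this strongly was set out by coding length for less abundant and for abundant genes. Of the less abundant genes, 8 of 401 with a coding length over 300 and up to 600 bases were members, or 2.00%. The share was 8 of 684 (1.17%) from there to 900 bases, 30 of 2265 (1.32%) from there to 1800 bases, and 7 of 1305 (0.536%) above 1800 bases. Among abundant genes the corresponding shares were 45 of 187 (24.1%), 20 of 214 (9.35%), 12 of 817 (1.47%) and 7 of 887 (0.789%). The abundant and less abundant genes thus had similar shares above 900 bases and widely different ones up to 900 bases. The shares were furthest apart up to 600 bases, where 45 of the 84 abundant falling genes but 8 of the 53 members lay. The difference between the sets was not tested.

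**Figure D3:**
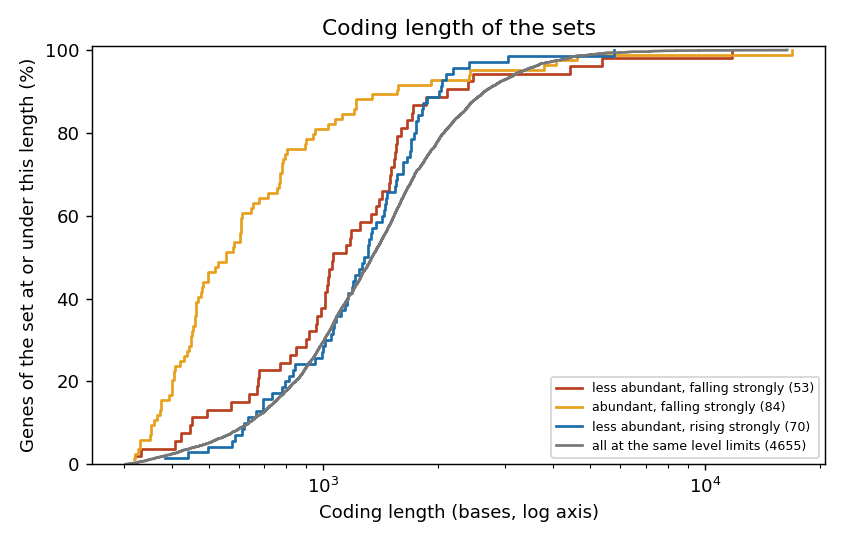
Cumulative share of genes (y axis, %) by coding length in bases (x axis, log axis) for the 53 members, the 84 abundant falling genes, the 70 less abundant rising genes and all 4655 genes at the members' limits on level and length. The median of the members, 1059 bases, lies between that of the abundant falling genes, 555 bases, and that of all genes at these limits, 1341 bases.

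The spread between the libraries of a strain was compared with that of genes at the same limits on level and length. The reference libraries differed by a median of 1.19-fold over the members and 1.15-fold over the 4655 genes. The delta-hapX libraries differed by a median of 1.22-fold over the members and 1.15-fold over the 4655. The members have fewer reads in delta-hapX, so a wider counting spread there goes with the choice. Reference library a was above b in 34 of 53 members (64.2%), against 55.0% of the 4655 genes and 76 of the 84 abundant falling genes (90.5%). Delta-hapX library a was above b in 27 of 53 (50.9%), against 54.2% of the 4655. The part of this difference between the reference libraries in the results was not tested, and leaving out reference library a moved the median log2 ratio of the fixed 53 genes from -1.73 to -1.66.

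For each member the lowest reference value was set against the highest delta-hapX value. The rule chose the genes on these same values, by separation and ratio, so a wide gap is favoured by the choice. The folds below describe the members and are no test of the fall. This narrowest gap was at least 2-fold in 50 of the 53 genes, with a median of 2.75-fold. It exceeded both folds between libraries of a strain in 47 genes. The 6 exceptions were NRRL3_11763, NRRL3_07587, NRRL3_01601, NRRL3_03936, NRRL3_02168 and NRRL3_10250, named here after their values had been seen.

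NRRL3_03936 (771 bases) had the narrowest gap, 1.68-fold. It had 13.6 and 9.17 CPM in the reference libraries and 5.47 and 0.856 CPM in the delta-hapX libraries, from 21 and 3 reads in the latter. NRRL3_07587 (1659 bases) had 27.7 and 54.8 CPM in the reference against 16.1 and 4.85 CPM in delta-hapX, and its gap was 1.71-fold. In both genes delta-hapX library a was several-fold above library b, so the size of the fall depends on the library taken. NRRL3_11763 had the largest fold between the reference libraries, 2.21, from 17.6 and 7.97 CPM, against 3.65 and 2.00 CPM in delta-hapX. NRRL3_01261 (1053 bases) had the smallest fold between them, 1.01, from 85.8 and 86.9 CPM, against 20.3 and 18.5 CPM, a 4.36-fold difference with the offset.

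**Figure D4:**
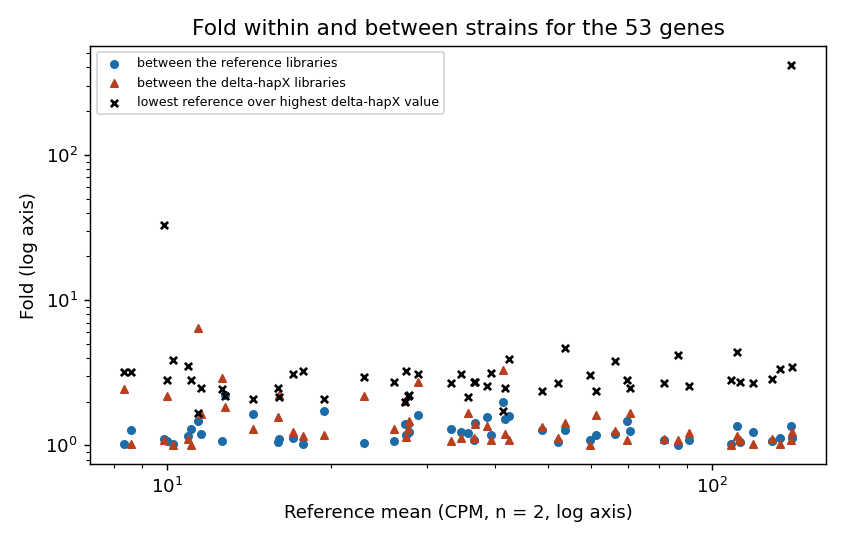
Folds for each of the 53 genes (y axis, log axis) against the mean reference level (x axis, CPM, n = 2, log axis). Blue circles are the fold between the reference libraries and red triangles that between the delta-hapX libraries. Crosses are the lowest reference value over the highest delta-hapX value, which is at least 2 in 50 genes and lies above both other symbols in 47. The rule's limits on separation and ratio favour high crosses.

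Of the genes that missed a single limit, 1 missed only that on length and 1 only that on separation. NRRL3_07606 met every limit but the one on length, with 246 bases. It had 26.7 and 26.8 CPM in the reference libraries and 4.43 and 3.14 CPM in the delta-hapX libraries. It is numbered directly before the member NRRL3_07607 (639 bases), which had 11.7 and 10.1 CPM against 2.86 and 2.57 CPM, a 3.55-fold difference. NRRL3_07159 met every limit but separation. It had 22.0 CPM in reference library a and 0.294 CPM in reference library b, against 0.0156 and 0.311 CPM in delta-hapX, so its high mean came from reference library a alone.

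Of the members, 4 carried consecutive identifiers, NRRL3_09100 to NRRL3_09103, and no other members were numbered next to each other. These 4 are 7.55% of the members. Adjacent numbers within the set were carried by 10 of the 84 abundant falling genes (11.9%) and 13 of the 70 less abundant rising genes (18.6%). The shares were not tested against each other. NRRL3_09100 (1032 bases) had 35.6 and 22.0 CPM in reference libraries a and b and 7.03 and 2.57 CPM in delta-hapX libraries a and b. NRRL3_09101 (1245 bases) had 52.1 and 32.6 CPM against 8.33 and 7.70 CPM. These 2 genes fell by 5.53-fold and 5.03-fold with the offset. NRRL3_09102 (816 bases) had 29.8 and 25.1 CPM against 6.77 and 7.70 CPM, and NRRL3_09103 (1029 bases) had 47.1 and 30.2 CPM against 11.7 and 8.56 CPM. They fell by 3.61-fold and 3.68-fold. In all 4 genes reference library a was above b, and per length the 4 had similar reference levels of 28.0, 33.9, 34.0 and 37.7 FPKM. In delta-hapX they were at 4.68, 6.43, 9.00 and 9.90 FPKM.

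The next number, NRRL3_09104 (1344 bases), was the gene nearest outside the limit on the reference mean, with 7.95 CPM. It had 9.61 and 6.28 CPM in the reference against 1.82 and 2.00 CPM in delta-hapX, and it fell by 2.02 on the log2 scale (SE 0.48, edgeR adjusted p = 0.00415). NRRL3_09105 averaged 725 ± 105 CPM with hapX and 689 ± 66.7 CPM without it (SD, n = 2 each), and its log2 fold change was -0.05, with an SE of 0.13 (edgeR adjusted p = 0.798). On the other side, NRRL3_09099 (2625 bases) rose, from 4.46 and 6.03 CPM in the reference to 12.5 and 10.3 CPM in delta-hapX (log2 fold change 1.14, SE 0.35, edgeR adjusted p = 0.0233). The lower values thus ran over the 5 numbers from NRRL3_09100 to NRRL3_09104 and stopped at a neighbour of opposite direction and at one that did not pass the test. NRRL3_09094, 6 numbers before the run, was an abundant gene that fell from 514 to 90.1 CPM (log2 fold change -2.49, edgeR adjusted p = 8.93e-11).

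**Figure D5:**
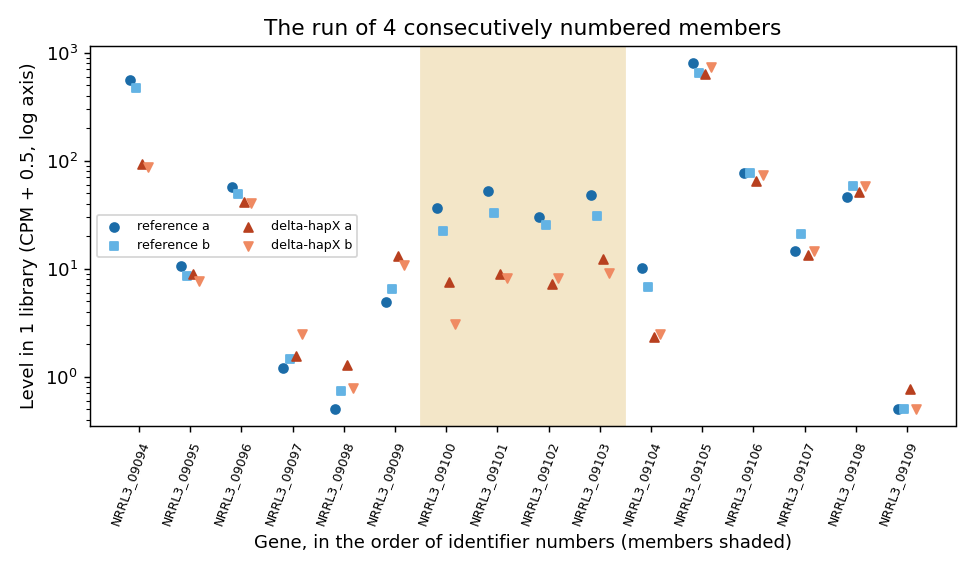
Level in each library (y axis, CPM + 0.5, log axis) of the gene models from NRRL3_09094 to NRRL3_09109 in the order of their numbers, with the 4 members shaded. Reference symbols (blue) lie above delta-hapX symbols (red and orange) from NRRL3_09100 to NRRL3_09104, below them in NRRL3_09099, and among them in NRRL3_09105.

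A few other members were numbered close together without being adjacent. NRRL3_05584 and NRRL3_05587 were 3 numbers apart, as were NRRL3_11712 and NRRL3_11715. Between the first pair, NRRL3_05585 did not pass the test (log2 fold change 0.21, edgeR adjusted p = 0.819). NRRL3_05586, also between them, had 1.41 and 1.93 CPM in the reference against 0.521 and 0.856 CPM in delta-hapX and was not tested. Between the second pair, NRRL3_11713 did not pass the test (log2 fold change -0.13, edgeR adjusted p = 0.881), and NRRL3_11714 was not listed. NRRL3_09088 lay 12 numbers before the run and NRRL3_09130 lay 27 numbers after it, and NRRL3_09069 preceded NRRL3_09088 by 19 numbers.

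The genes numbered next to a member were examined as genes that the rule did not choose. Among them, NRRL3_07606, NRRL3_09104 and NRRL3_06917 met the rule's limits on ratio and separation and missed it only on level or length. Of the 63 non-members that were adjacent to a member and could be tested, 18 were called lower (28.6%, against 14.4% of all genes tested) and 4 higher (6.35%, against 12.2%). At a distance of 2 numbers 15 of 68 were lower (22.1%), and at a distance of 3 it was 8 of 60 (13.3%). Adjacent non-members had a median log2 fold change of -0.28, and those 2 and 3 numbers away had medians of -0.06 and 0.03. The share called lower was thus above the background next to the members and close to it 3 numbers away.

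Of the 18 lower neighbours, 11 fell at least 2-fold. These 11 are 17.5% of the 63 tested, and 4.69% of all genes tested were likewise called lower and fell at least 2-fold. The log2 fold changes of the 18 ranged from -2.79 to -0.57. The strongest was NRRL3_07606, the short gene described above (edgeR adjusted p = 1.62e-06). NRRL3_06917 (462 bases), numbered before the short member NRRL3_06918, was the only one of the 18 that belonged to the abundant falling genes. It fell from 641 and 571 CPM in the reference libraries to 162 and 153 CPM in the delta-hapX libraries (log2 fold change -1.93, edgeR adjusted p = 6.11e-10). The 4 neighbours that rose were NRRL3_03935, NRRL3_04650, NRRL3_09099 and NRRL3_10981, with log2 fold changes of 2.13, 1.48, 1.14 and 0.45. NRRL3_03935 rose from 4.39 to 19.1 CPM (edgeR adjusted p = 7.19e-05) beside the member NRRL3_03936.

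Most of the called neighbours, lower and higher, lay on the side of the smaller number. Of the neighbours numbered directly before a member, 15 of 31 tested were called lower (48.4%) and 4 higher (12.9%), the 4 named above, with a median log2 fold change of -0.65. Of those numbered directly after a member, 3 of 32 were called lower (9.38%), with a median of -0.17. The share directly after a member was thus under the 14.4% of all genes tested. At a distance of 2 the shares were 9 of 36 (25.0%) before and 6 of 32 (18.8%) after. This division by side was made after the values had been seen, and the difference between the sides was not tested. Whether the tables count reads by strand, and whether neighbouring numbers mean neighbouring genes on a chromosome, is not stated in any source at hand. Reads of overlapping neighbours could therefore not be told apart. All members had whole-number counts in all 4 tables.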

How the data were processed

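RNA sequencing of 4 libraries was analysed from the tables the authors deposited, 1 per library. Per the series' design text, single-end reads were mapped to the NRRL3 genome of A. niger. Per the submitters' processing notes, Bowtie2 and HISAT were used. The quantifier, the strandedness and any filter are stated in none of the sources used here. Per the file headers, the deposited tables hold an expected count per gene (an estimated number of reads, not normalized), an FPKM value computed by the authors (scaled to gene length and to mapped fragments) and a gene length in bases, another column of the deposited tables. Every length is a multiple of 3, hence called coding length. Genes missing from a table were set to 0. CPM are counts scaled to the library total. Of 10898 identifiers, 0 matched the table of gene names at hand (assembly ASM285v2), so the planned pathway lists were not filled.

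The members, lists and comparisons were chosen with earlier results of these data known. Expected counts were rounded and tested by edgeR 4.0.16 in R 4.3.3 (quasi-likelihood F test, strain as sole covariate, 2 libraries per strain), with TMM scaling, the default filter on low counts and Benjamini-Hochberg adjustment at 0.05. The SE of a log2 fold change is approximate, taken as its absolute value divided by the square root of the F statistic. The fit was run on 1 draw of counts simulated from its own means, library sizes and dispersions, with planted changes. Such a draw cannot show whether the fit suits the real libraries. Alternatives used DESeq2 1.42.0, limma 3.58.1 on log2 FPKM, other filters, the replicate letter as a block and each library left out. Deviations of same-lettered libraries had a correlation of 0.020 across genes, and libraries were not treated as paired. Named genes were the members with the strongest fall, highest levels, extreme lengths, consecutive numbers, extreme reference spread or a place next to a limit; other names were chosen after their values had been seen. Intervals and floors cover counting error only, since no molecular identifiers mark the reads and 1 molecule can give several.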

Additional observations from a re-analysis of the deposited data

How the results depend on the processing

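All 53 genes were called lower by edgeR with DESeq2's size factors and with no filter. The same held with a minimum of 10 counts in each library of either strain, and with the letters as a replicate block. In the order given, these fits called 1243 of 8535, 1360 of 10896, 1228 of 8411 and 1406 of 8535 tested genes lower. The rule used the same contrast, so nothing is read from the counts of members called, here or below. DESeq2's Wald test called 52 (not NRRL3_07587), and limma called 51 and 50 with the filter (pseudocount 1 and 0.1) and 47 without it. Leaving out 1 library gave 50 to 53, where the single library left in a strain is taken to vary as much as those of the other strain. These fits called 890 to 1076 of 8763 to 8777 tested genes lower in all, and limma with the filter called 1001 and 921 of 9280. The genes lost were NRRL3_03936, NRRL3_04742 and NRRL3_11763 without reference library a, NRRL3_03795 without reference library b, and NRRL3_03936 without delta-hapX library b. Over all genes, 1225 lower calls became 810 with DESeq2 and 714 with limma on unfiltered log2(FPKM + 1). The 1044 higher calls became 570 with DESeq2, 680 and 635 with limma on filtered values (pseudocount 1 and 0.1) and 487 without the filter. The cause was not tested. The rule gave 52 members with TMM-scaled CPM, 66 and 45 with an offset of 0 and 1 CPM, and 54 with no limit on length. Without 1 library it gave 54 to 78 genes, of which 35 to 45 were among the 53, so membership near the limits rests on single libraries. The median log2 ratio of the fixed 53 genes lay between -1.85 and -1.65 under all 9 settings tried. Low delta-hapX counts limit the precision of single falls. No result met the limits for a closer look, which need groups of at least 4 libraries or more than 1 contrast.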
